A study of Mus musculus with 3 samples.

Results

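Lipid handling in lung macrophages was followed through 3 single-cell RNA libraries of mouse lung with 8 genes of lipid uptake, transport, storage and export: Fabp1, Fabp4, Fabp5, Lpl, Abcg1, Apoe, Plin2 and Cd36. They were the rows of the count matrices whose gene symbol equals one of these names, 8 of 27998 genes, and all 8 were found in every library. The genes were chosen by their levels measured in these same libraries, so these levels are given as a description, with no test. Every animal was a C57BL/6 female of 10 to 12 weeks. The non-irradiated lung served as the control (NI), and the other libraries came from lungs whose thorax had received 17 Gy of 4.5 MeV electrons under isoflurane, in conventional mode (CONV) or in FLASH mode, which delivers the dose at an ultra-high rate. Each group was 1 library, and neither the number of mice behind it nor the time from irradiation to sampling is given in the sources used here. A value therefore has an interval for counting error (95%, in brackets) but none for the spread between animals.

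Alveolar macrophages live in the airspace and clear spent surfactant, a film rich in phospholipid and cholesterol, and their development depends on the nuclear receptor PPAR-gamma, whose known targets include several fatty acid handling genes. Fatty acid binding proteins (Fabp1, first known from liver; Fabp4, from fat cells and capillaries; Fabp5, from skin) carry fatty acids inside the cell, CD36 brings long-chain fatty acids and oxidized lipoprotein across the membrane, and lipoprotein lipase (Lpl) frees fatty acids from triglyceride. Perilipin 2 (Plin2) coats stored lipid droplets, the transporter Abcg1 passes cholesterol to high-density lipoprotein, and apolipoprotein E (Apoe) is secreted to carry lipid away. Interstitial macrophages lie in the tissue around vessels and airways, and monocytes, of a classical and a non-classical kind, circulate.

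On build mm10 the genes lie at chr6:71199827-71205023 (Fabp1), chr3:10204088-10208576 (Fabp4), chr3:10012548-10016607 (Fabp5), chr5:17781690-17888801 (Cd36), chr8:68880491-68907448 (Lpl), chr4:86648386-86670060 (Plin2), chr17:31057675-31117988 (Abcg1) and chr7:19696109-19699188 (Apoe), as GENCODE M21 annotates them. Promoter windows of 250 bases before to 50 after a transcription start (RefSeq, GRCm38.p6) were held for 4 of the 8 genes. PPAR-gamma and its partner are known to bind paired copies of the letters AGGTCA set 1 base apart, so both strands were searched for AGGTCA and for that pair (AGGTCA, any base N, AGGTCA), which also counts as AGGTCA when exact. Of 32851 windows in the genome, 16.3% hold AGGTCA, 0.0396% hold the exact pair and 0.554% hold the pair with at most 1 mismatch. The Fabp1 window is in the last of these groups, the Plin2 and Cd36 windows hold AGGTCA alone, and no match was found in the Apoe windows. Fabp1, Plin2 and Apoe are shown because their levels follow cell types differently. Fabp1 followed alveolar macrophages and Apoe interstitial macrophages. Plin2 led in alveolar macrophages, with monocytes, interstitial macrophages and alveolar fibroblasts at similar levels below. The window of Cd36, which was highest in type 2 or capillary endothelial cells, is not printed. Capitals mark the matches, which read TGACCT on the printed strand, and every window runs 5′ to 3′ along its gene.
Fabp1, chr6:71199629-71199928, plus strand: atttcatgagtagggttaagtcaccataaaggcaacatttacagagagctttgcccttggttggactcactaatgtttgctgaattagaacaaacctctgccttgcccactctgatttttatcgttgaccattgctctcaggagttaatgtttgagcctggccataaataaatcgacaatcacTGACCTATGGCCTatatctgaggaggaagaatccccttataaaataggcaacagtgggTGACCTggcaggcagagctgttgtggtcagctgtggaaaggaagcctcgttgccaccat
Plin2, chr4:86670010-86670309, minus strand: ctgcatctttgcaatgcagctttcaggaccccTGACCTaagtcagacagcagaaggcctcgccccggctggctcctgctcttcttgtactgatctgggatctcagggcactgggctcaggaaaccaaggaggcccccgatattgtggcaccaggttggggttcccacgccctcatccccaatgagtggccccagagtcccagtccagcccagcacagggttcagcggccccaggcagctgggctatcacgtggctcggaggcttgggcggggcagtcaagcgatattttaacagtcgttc
Apoe, chr7:19699139-19699438, minus strand: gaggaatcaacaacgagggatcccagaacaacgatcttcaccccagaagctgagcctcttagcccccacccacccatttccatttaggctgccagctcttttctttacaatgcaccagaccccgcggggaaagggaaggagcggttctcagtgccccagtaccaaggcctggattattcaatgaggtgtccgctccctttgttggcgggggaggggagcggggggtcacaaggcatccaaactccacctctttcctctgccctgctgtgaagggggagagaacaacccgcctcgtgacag
In the Fabp1 window the paired match, TGACCTATGGCCT, begins 67 bases before the start site, and a further AGGTCA copy lies nearer to it. The Plin2 match begins 218 bases before the start. A match is a description of these letters and not a binding site.

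Counts were of unique molecular identifiers (UMIs), which tag single RNA molecules. The libraries held 1761 (control), 2507 (CONV) and 2394 (FLASH) barcodes with medians of 2960, 2351 and 1776.5 UMIs, so cells of the control were the deepest. The 6341 cells kept formed 25 clusters, and 14 classes had at least 20 cells in each library. The control stood apart in holding 130 thymocyte-like cells and an unnamed cluster of 221 cells that had no counterpart after irradiation. Neither is among the 14 classes, but both count in the library totals used for shares of UMIs below. At most 7 barcodes were shared by any pair of libraries. Alveolar macrophage-like cells numbered 70, 198 and 202 (control, CONV, FLASH, the order used throughout), interstitial macrophage-like cells 29, 90 and 91, and monocyte cells 62, 222 and 220. All 12 alveolar macrophage markers found in the tables (13 were listed; Chil3, Ear1 and Marco among them) were detected in the alveolar class of each library, summing to 16605, 17549 and 17582 CPM (a gene's UMIs per 1000000 UMIs summed over the cells of the class), and all 12 interstitial markers (C1qa and C1qb among them) in the interstitial class. Marco was at 0 in the interstitial and monocyte classes, but Chil3 was at 538, 740 and 825 CPM in the monocyte class. The summed alveolar markers were at 662, 773 and 860 CPM in the interstitial class and at 1082, 1186 and 1313 CPM in the monocyte class. Cells that should lack epithelial RNA still had some: Sftpc, the surfactant gene of alveolar type 2 cells, was at 949, 3320 and 2257 CPM in T-like cells, and the T-like level of each lipid gene is given below where it is not small.

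The 8 genes differed in the cell class where they were highest. In every library Fabp1, Lpl, Abcg1 and Plin2 were highest in alveolar macrophages, Apoe in interstitial macrophages and Fabp5 in alveolar type 2 cells. Cd36 was highest in type 2 or general capillary endothelial cells, and Fabp4 in capillary endothelium (CONV, FLASH) or alveolar macrophages (control). Alveolar macrophages held 94.7% to 95.4% of all Fabp1 UMIs of a library, 69.2%, 89.0% and 88.5% of Abcg1 and 71.8%, 80.8% and 83.8% of Lpl. By contrast they held 0.504%, 0.712% and 0.702% of Apoe, of which interstitial macrophages held 33.5%, 29.9% and 38.9%. Such shares depend on cell numbers as well as on levels. Alveolar macrophages were 4.11%, 8.30% and 8.97% of the cells kept, and interstitial macrophages 1.70%, 3.77% and 4.04%.

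**Figure D1:**
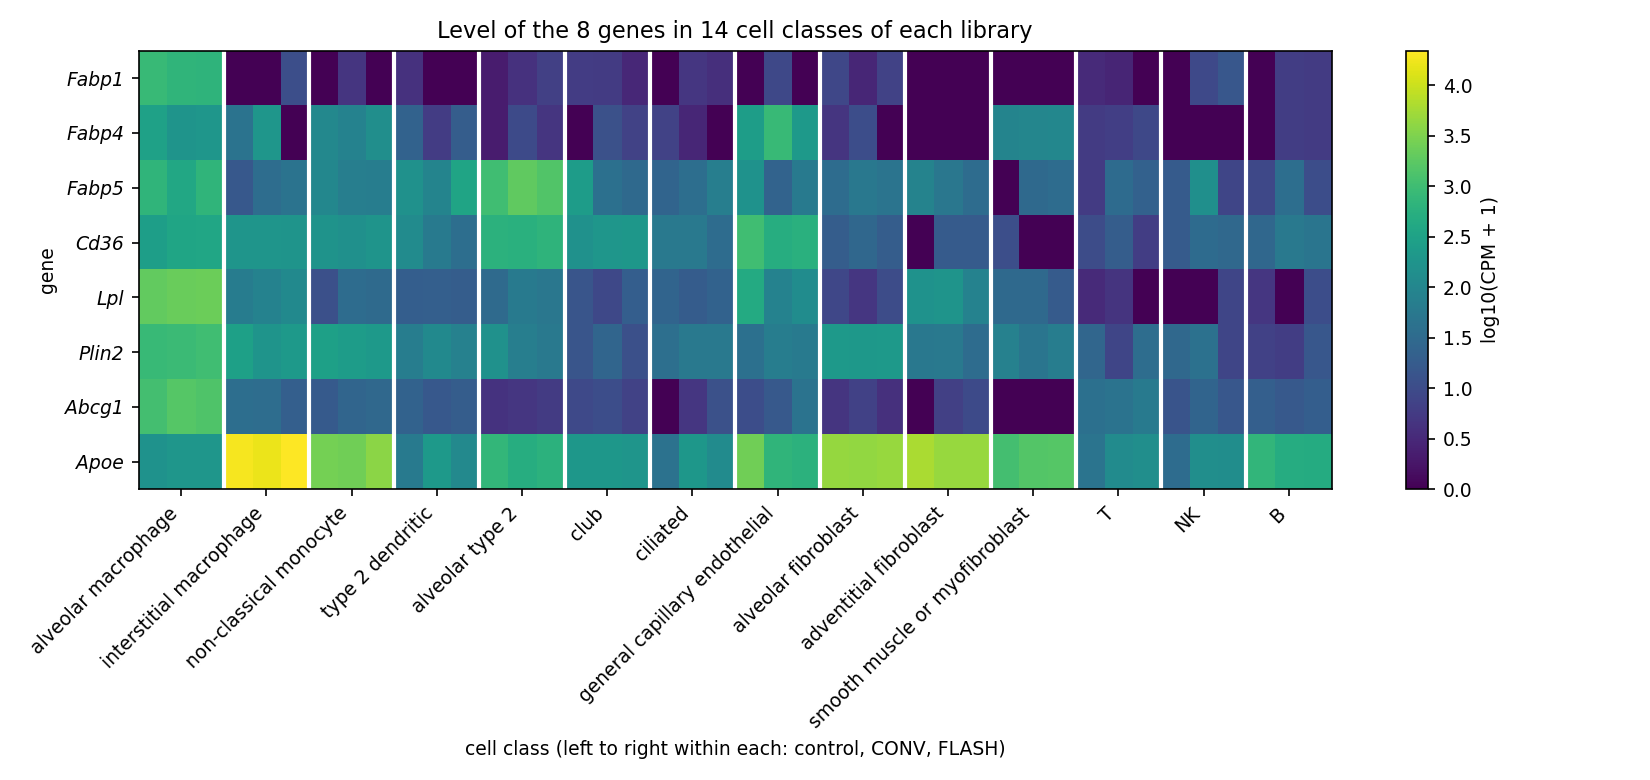
Level of each gene (rows) in 14 cell classes (columns, 3 libraries side by side in each), as log10(CPM + 1) in colour. Fabp1 is bright in the alveolar macrophage columns alone (671 to 856 CPM against at most 14.3 elsewhere), and Apoe is brightest in interstitial macrophages.

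The margin between the leading class and the rest differed from gene to gene. The lowest alveolar macrophage level was 47.0 times the highest level of any other class for Fabp1, 18.9 times for Abcg1 (next, T-like cells at up to 57.8 CPM), 4.51 times for Lpl (next, general capillary endothelium at up to 446 CPM in the control) and 2.90 times for Plin2. The lowest interstitial macrophage level of Apoe was 2.62 times the highest elsewhere, which was 6196 CPM in adventitial fibroblasts. Fabp5 spanned 1037 to 1885 CPM in type 2 cells, above its 394 to 695 CPM in alveolar macrophages. For Cd36, type 2 cells (573 to 658 CPM) and capillary endothelium (511 to 1010 CPM) overlapped, and both lay above alveolar macrophages (270 to 372 CPM). Fabp4 overlapped between capillary endothelium (224 to 838 CPM) and alveolar macrophages (175 to 303 CPM), and at most 5 endothelial cells held all 52 of its control UMIs, all 31 in FLASH and 86.4% of the 110 in CONV. Below them the order was less clear, since the Cd36 levels of club cells and interstitial macrophages overlapped, as did the Fabp4 levels of monocytes and smooth muscle.

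Among the fatty acid binding proteins of alveolar macrophages, Fabp4 and, by less, Fabp1 were lower in both irradiated libraries, and Fabp5 in CONV only. Fabp4 stood at 303 CPM (238 to 380) in the control, 175 CPM (139 to 217) in CONV and 188 CPM (149 to 235) in FLASH. The control was the high library, and its ratio intervals lay below 1: 0.576 (0.415 to 0.8005) for CONV over control and 0.622 (0.448 to 0.865) for FLASH over control. Fabp5 stood at 692 CPM (592 to 805), 394 CPM (339 to 456) and 695 CPM (618 to 779). Here CONV was the low library, at 0.570 times the control (0.460 to 0.707), while the interval of FLASH over control (1.00, 0.828 to 1.22) spanned 1. FLASH was thus 1.76 times CONV (1.46 to 2.13). Fabp1, the most class-bound of the 8, was at 856 CPM (744 to 980), 694 CPM (620 to 774) and 671 CPM (596 to 754), or 0.811 (0.679 to 0.970) and 0.785 (0.654 to 0.942) times the control. In T-like cells Fabp1 was at most 2.33 CPM, Fabp4 at most 7.88 CPM and Fabp5 at 4.65, 32.1 and 21.0 CPM.

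The genes of uptake and storage leaned the other way, by less than Fabp4. Cd36 was at 270 CPM (209 to 344), 349 CPM (297 to 407) and 372 CPM (316 to 435), with ratios to the control of 1.29 (0.965 to 1.75) and 1.38 (1.03 to 1.86). Lpl, which had the most UMIs of the 8 in this class, was at 2011 CPM (1837 to 2197), 2231 CPM (2097 to 2371) and 2309 CPM (2166 to 2458). Its ratios to the control were 1.11 (0.995 to 1.24) and 1.15 (1.03 to 1.28). The droplet coat gene Plin2 was at 835 CPM (725 to 958), 901 CPM (817 to 991) and 1004 CPM (911 to 1104), or 1.08 (0.910 to 1.28) and 1.20 (1.01 to 1.43) times the control. For all of these, FLASH and CONV differed little, with FLASH over CONV between 1.04 for Lpl and 1.11 for Plin2.

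Of the export genes, Abcg1 was higher in both irradiated alveolar macrophage samples. It was at 1093 CPM (966 to 1233) in the control, 1582 CPM (1469 to 1701) in CONV and 1392 CPM (1282 to 1509) in FLASH. The control was the low library, and the interval of each ratio excluded 1: CONV was 1.45 times the control (1.26 to 1.67), FLASH 1.27 times (1.10 to 1.48), and FLASH 0.880 times CONV (0.788 to 0.982). Apoe, low in this class, was at 164 CPM (117 to 223), 190 CPM (152 to 234) and 188 CPM (149 to 235), beside 46.5, 123 and 137 CPM in T-like cells. In the control 24 of its 40 UMIs lay in 1 cell, and over the alternatives tried its CONV-to-control ratio ran from 0.567 to 2.54, so no direction is read from it.

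Counting a gene as past the limit when its ratio was at least 1.5 or at most its inverse, 2 of 8 genes passed in CONV against control (Fabp4 and Fabp5, both lower), beside 20.3% of the 3470 genes that had at least 30 UMIs over the 2 libraries. In FLASH against control 1 of 8 passed (Fabp4, lower), beside 19.7% of 3261 genes, and in FLASH against CONV 1 of 8 (Fabp5, higher), beside 13.3% of 4041. Without the cell with most Fabp4 UMIs in each library, an alternative chosen after seeing the data, Fabp4 in FLASH over control was 0.688 and no longer past the limit. With 8 genes, 1 or 2 past the limit is near these background shares. Both comparisons with the control share that 1 library. The median log2 ratio of the 8 genes was 0.13, 0.20 and 0.07, against -0.01, -0.03 and -0.02 over all genes compared.

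**Figure D2:**
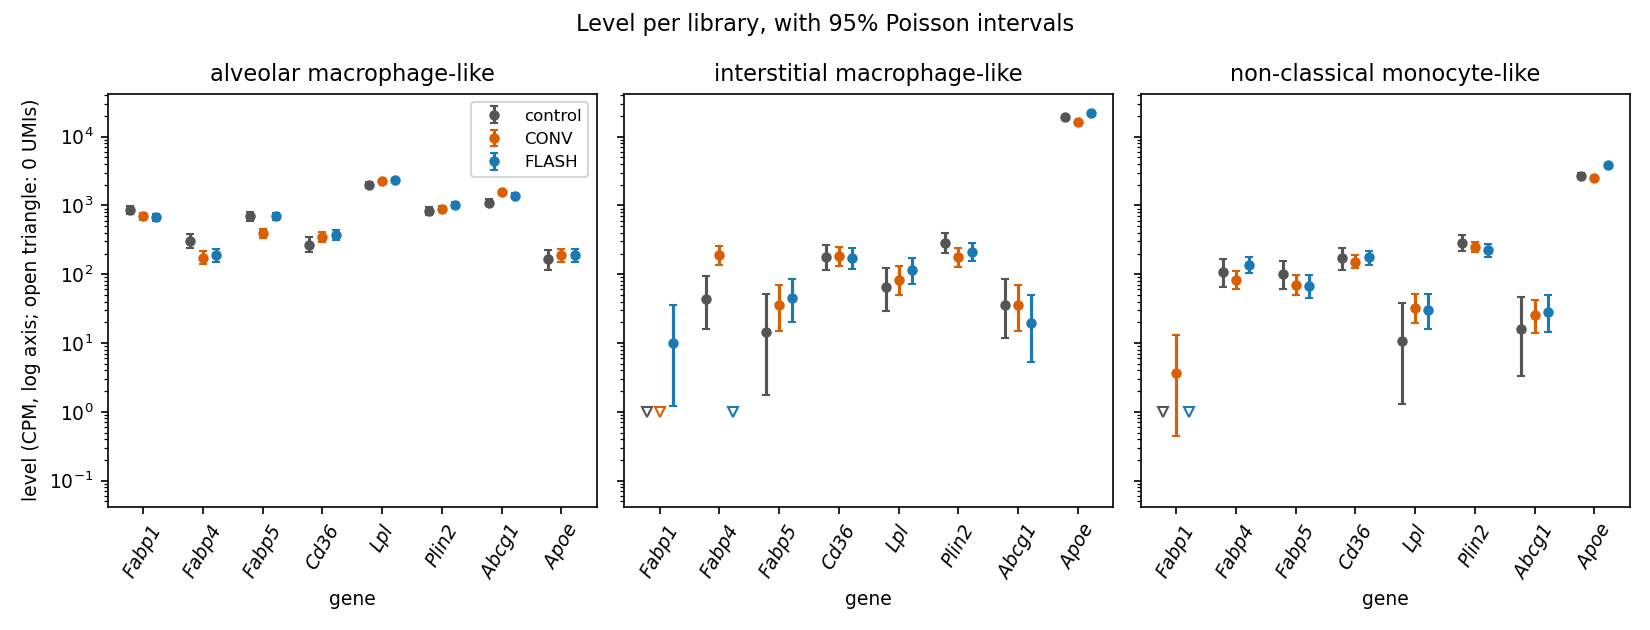
Level of each gene (CPM, log axis) in alveolar macrophage-like, interstitial macrophage-like and monocyte cells of the 3 libraries, with 95% Poisson intervals. Fabp5 in CONV (394 CPM) lies below Fabp5 of the other alveolar macrophage libraries, and Apoe in interstitial macrophages is at 16240 CPM or more in each library.

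**Figure D3:**
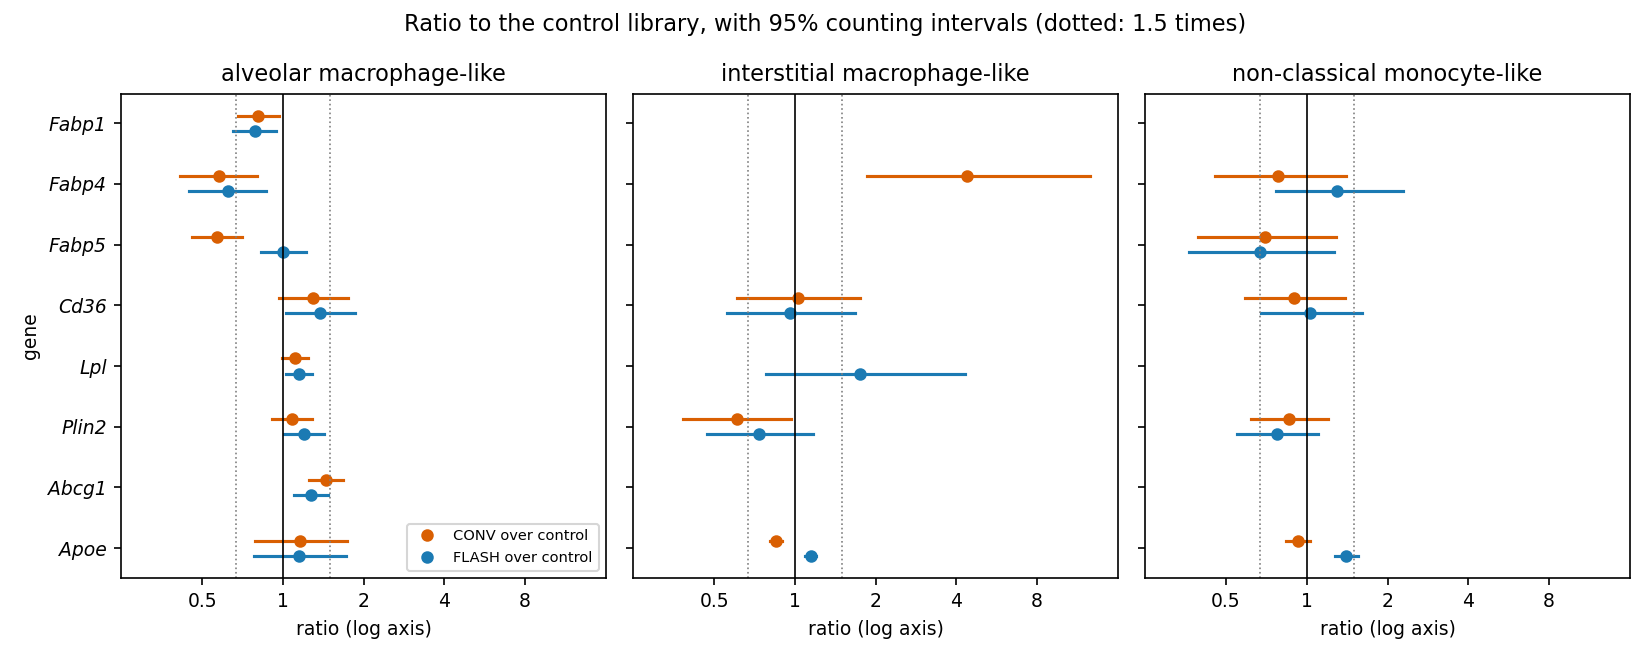
Ratio of CONV and of FLASH to the control for the genes with enough UMIs, with 95% counting intervals on a log axis and the limit of 1.5 times dotted. In alveolar macrophages Fabp4 lies left of the limit in both, Fabp5 in CONV (0.570), and Abcg1 lies right of 1 in both.

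Within the alveolar macrophages of 1 library the genes were spread unevenly over cells. Lpl had a median of 6.5, 5 and 4 UMIs per cell and Abcg1 of 3 in each library, whereas for Fabp4 the median was 0. The 5 cells with most Fabp5 held 36.7%, 19.1% and 31.9% of its UMIs, with up to 29 in 1 FLASH cell. Since depth differed (medians of 3355.5, 2143 and 1959 UMIs in this class and 2471.5, 1777 and 1442 in T-like cells), each cell was thinned to 1000 UMIs before shares were compared. Then Lpl was seen in 80.0%, 85.9% and 86.6% of alveolar macrophages (98.6%, 96.5% and 95.5% before thinning) and in no T-like cell. Fabp1 was seen in 45.7%, 40.9% and 40.1% (67.1%, 57.6% and 56.4%), with at most 0.334% of T-like cells. Fabp4 was seen in 22.9% (13.7 to 34.4), 14.6% (10.0 to 20.4) and 17.3% (12.4 to 23.3), and Fabp5 in 31.4% (20.9 to 43.6), 27.3% (21.2 to 34.0) and 33.2% (26.7 to 40.1), so the intervals of the libraries overlapped. Plin2 (48.6%, 54.0% and 59.9%) and Cd36 (15.7%, 24.2% and 28.7%) ran in the order of their levels, with overlapping intervals, and Abcg1 (77.1%, 75.8% and 70.3%) did not. Thinning to 500 UMIs gave other orders, with Plin2 at 35.7%, 33.8% and 37.6%, Cd36 at 14.3%, 11.6% and 17.8%, and Abcg1 at 47.1%, 52.5% and 53.5%. Fabp4 was then lowest in the control, at 7.14%, 8.08% and 8.91%, so no order of the libraries is read from these shares. Over cells of 1 library, none of the 28 pairs of genes had a Pearson r above 0.2 in all 3 libraries (range -0.27 to 0.28), in sparse counts.

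**Figure D4:**
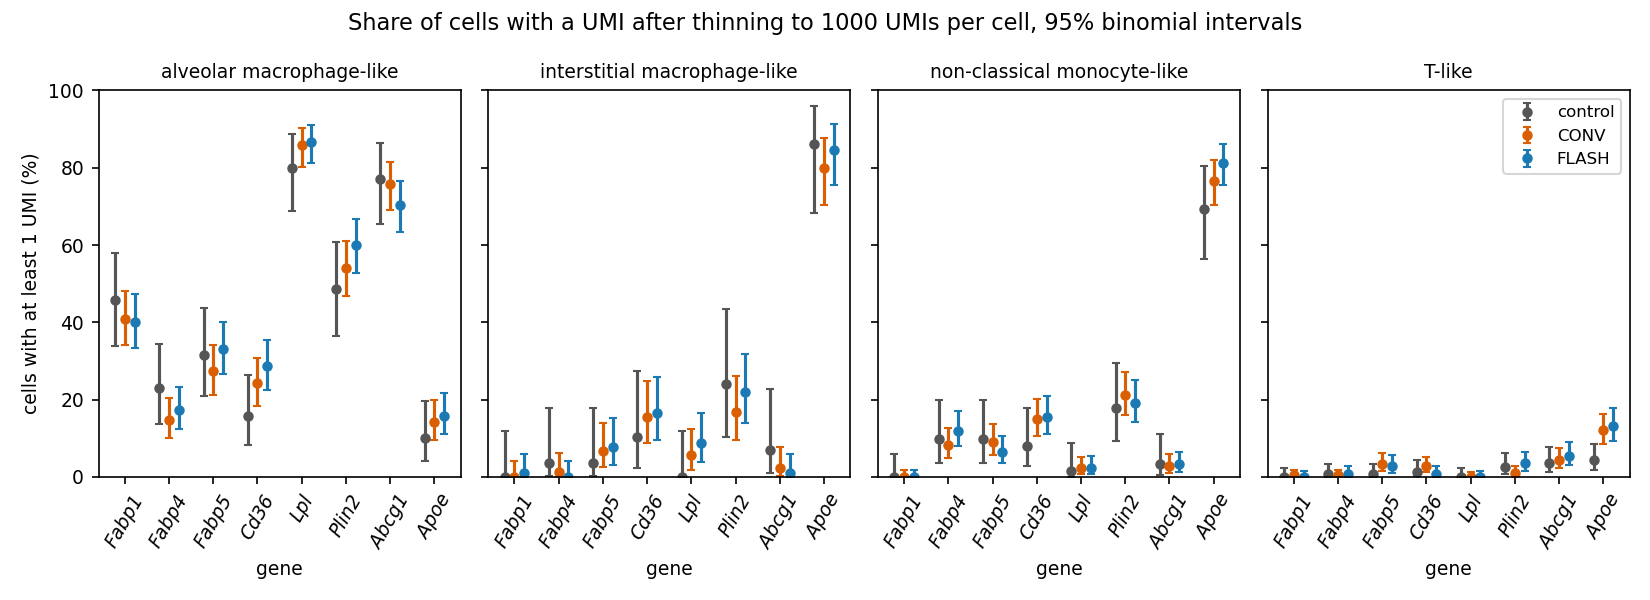
Share of cells with at least 1 UMI of each gene after thinning to 1000 UMIs per cell, with 95% binomial intervals, in 3 phagocyte classes and in T-like cells as background. Lpl and Abcg1 were seen in over 70% of alveolar macrophages and in at most 8.79% of interstitial macrophages.

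Interstitial macrophages were marked by Apoe and had little of the alveolar set. Apoe was at 19121 CPM (18401 to 19862), 16240 CPM (15720 to 16772) and 21909 CPM (21269 to 22564). CONV was the low library, at 0.849 times the control (0.808 to 0.893), and FLASH the high one, at 1.15 times the control (1.09 to 1.20) and 1.35 times CONV (1.29 to 1.41). In the control, 5 of 29 cells held 42.0% of the Apoe UMIs, with 306 in 1 cell. The 5 cells with most Apoe held 16.7% in CONV (90 cells) and 17.6% in FLASH (91 cells). The counting intervals leave out this spread between cells. With cells of up to 20% mitochondrial UMIs kept, the FLASH-to-control ratio was 0.787, on the other side of 1. A finer clustering (resolution 1.6) parted this class in 2, and their Apoe levels lay far apart. The cluster led by Ccl8, Pf4 and Folr2, which encode chemokines and a folate receptor, had 28403, 26710 and 33421 CPM in 14, 39 and 48 cells. The cluster marked by Mmp12, a macrophage elastase gene at 0 UMIs in the Ccl8 cluster, and richer in the antigen-presenting gene H2-Ab1 in each library, had 10626, 7958 and 10027 CPM in 15, 49 and 42 cells. In every library Apoe was higher in the Ccl8 cluster. CONV was the low library in both clusters, with an interval that overlapped the control's in the Ccl8 cluster. FLASH was above the control in the Ccl8 cluster only, and in the Mmp12 cluster their intervals overlapped.

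Other lipid genes of interstitial macrophages were low and thinly counted. Plin2 was at 288 CPM (206 to 392), 176 CPM (125 to 239) and 213 CPM (154 to 286), a CONV-to-control ratio of 0.610 (0.384 to 0.970). Cd36 was at 180, 184 and 173 CPM, with no library apart from the others. Cd36 was at 256, 332 and 221 CPM in the Ccl8 cluster (17, 34 and 23 UMIs). In the Mmp12 cluster it was at 110, 49.8 and 127 CPM (8, 6 and 12 UMIs). Only in CONV did the intervals of the clusters lie apart (230 to 463 against 18.3 to 108). Lpl was at 64.8, 83.4 and 114 CPM, from 9, 19 and 23 UMIs, 7 of the 9 control UMIs being in 1 cell. Abcg1 (5, 8 and 4 UMIs), Fabp5 (2, 8 and 9) and Fabp1 (0, 0 and 2) were too few to compare. Fabp4 had 6, 43 and 0 UMIs, of which all 6 in the control and 39 of 43 in CONV were in 1 cell each, so its ratios describe single cells. With that caution, 2 of 4 genes compared passed the limit in CONV against control (Fabp4 higher, Plin2 lower), beside 28.4% of all genes compared (19.5% higher, 8.95% lower). In FLASH against control it was 1 of 4 (Lpl, higher), beside 28.1% (18.8% higher, 9.38% lower), and in FLASH against CONV 1 of 5 (Fabp4, lower), beside 17.1% (7.83% higher, 9.25% lower). Leaving out the cell with most UMIs of each gene, an alternative chosen after seeing the data, left 1, 0 and 0. Fabp4, and Lpl in FLASH against control, then had too few UMIs to be compared.

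At the main settings monocytes formed 1 cluster of 504 cells, named non-classical from its markers (Ace, Treml4). Every alternative clustering except that at resolution 0.6 gave a smaller class of this name, of 200 to 240 cells. The main cluster also held classical cells, with Ly6c2 at 1343, 462 and 563 CPM. Apoe was its main lipid gene, at 2713 CPM (2482 to 2959), 2507 CPM (2376 to 2642) and 3806 CPM (3623 to 3996). FLASH was the high library, at 1.52 times CONV (1.41 to 1.63) and 1.40 times the control (1.27 to 1.55), while CONV was at 0.924 times the control (0.834 to 1.02). Plin2 was at 288, 247 and 223 CPM, Cd36 at 171, 152 and 176 CPM, Fabp4 at 107, 83.4 and 138 CPM and Fabp5 at 101, 70.7 and 68.0 CPM. None of the 5 genes compared passed the limit in CONV against control (beside 23.4% of all genes compared, 11.2% higher and 12.2% lower) or in FLASH against control (beside 21.9%, 9.73% higher and 12.2% lower). In FLASH against CONV 2 of 6 did (Apoe and Fabp4, both higher), beside 12.6% (5.26% higher, 7.29% lower). The summed classical monocyte markers in the cluster were at 12253, 7559 and 7749 CPM. After thinning, Apoe was seen in 69.4%, 76.6% and 81.3% of these cells (87.1%, 86.9% and 86.8% before), against 4.22%, 12.0% and 13.2% of T-like cells.

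The finer clustering parted the monocytes into non-classical cells (34, 100 and 98, with Ly6c2 at up to 70.4 CPM) and classical cells (28, 122 and 122, with Ccr2 at 703, 673 and 851 CPM). Ly6c2 of the classical cells was at 2253, 737 and 878 CPM, the control being high, so they were not alike in each library. What this adds to the ratios of classical cells below was not tested. Fabp4 and Cd36 belonged to the non-classical cells in each library. Fabp4 was at 248, 180 and 348 CPM there and at 9.01, 15.4 and 11.3 CPM in classical cells, which had 1, 5 and 3 UMIs. The ratio of non-classical to classical cells was 11.7 (4.63 to 37.9) in CONV and 30.8 (10.0 to 154) in FLASH. Cd36 was at 378, 286 and 397 CPM against 27.0, 58.6 and 41.4 CPM, ratios of 13.998 (4.34 to 71.8), 4.88 (2.89 to 8.62) and 9.59 (5.02 to 20.2). Apoe was shared by both kinds, at 3105, 2601 and 3506 CPM in non-classical and 2442, 2440 and 3988 CPM in classical cells. FLASH was above CONV in each, 1.35 times (1.20 to 1.52) in non-classical and 1.63 times (1.49 to 1.79) in classical cells. Against the control, FLASH was at 1.13 times (0.969 to 1.32) in non-classical cells, an interval that spans 1, and at 1.63 times (1.43 to 1.87) in classical cells. Plin2 in classical cells was at 360, 256 and 211 CPM, or 0.585 times the control in FLASH (0.383 to 0.901), and in non-classical cells at 183, 233 and 242 CPM, with intervals that overlap. Fabp4 in non-classical cells was 1.93 times as high in FLASH as in CONV (1.26 to 2.96).

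**Figure D5:**
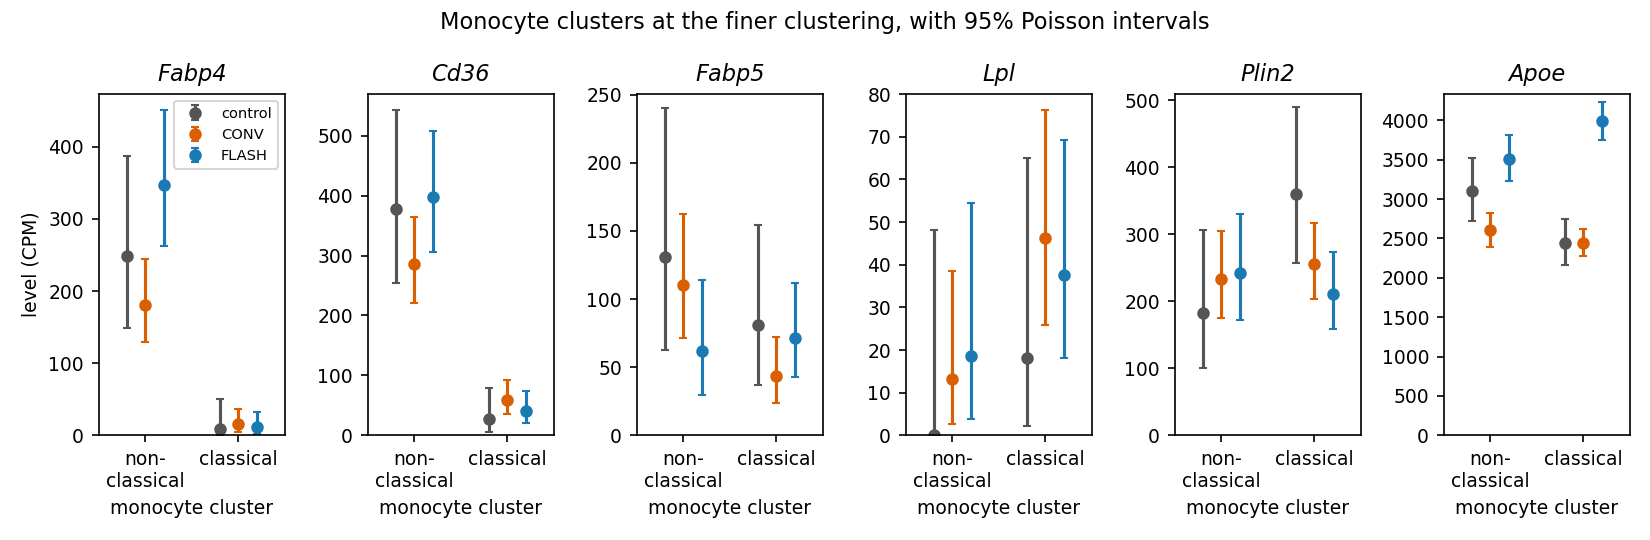
Levels (CPM, linear axes starting at 0) of 6 genes in the non-classical and classical monocyte clusters of the finer clustering, with 95% Poisson intervals. Fabp4 and Cd36 are high in the non-classical cluster of each library, while Apoe is high in both, with FLASH above CONV.

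Around these 8 genes, 107 others in 7 lists covered the same pathways, chosen like the 8 with earlier results known. In alveolar macrophages 63 could be compared in CONV against control, of which 11 were at least 1.5 times higher and 8 lower (10.3% and 10.0% of all genes compared). In FLASH against control it was 4 and 2 of 61 (8.92% and 10.8%), and in FLASH against CONV 4 and 4 of 68 (5.94% and 7.37%). Cholesterol efflux and apolipoproteins had the highest list medians, with log2 ratios of 0.61 in CONV (4 of 8 higher, 2 lower) and 0.60 in FLASH (3 of 6 higher, 1 lower). Abca1, the cholesterol pump that acts beside Abcg1, was at 45.04, 131 and 80.1 CPM, 2.92 times the control in CONV (1.52 to 6.15). Pltp, a phospholipid transfer protein, was at 28.7, 101 and 98.9 CPM, and Apoc1, a small apolipoprotein, at 32.8, 90.5 and 61.3 CPM. Both were at most 10.7 CPM in T-like cells. In interstitial macrophages Pltp was at 374, 369 and 475 CPM and Apoc1 at 576, 4.39 and 9.89 CPM. These Apoc1 levels came from 80, 1 and 2 UMIs, and how its control UMIs spread over the 29 cells was not examined. The summed interstitial markers in the alveolar class were at 40.9, 194 and 115 CPM, with 4, 10 and 10 of 12 detected and Folr2 at 0 in each library, and their part in Pltp and Apoc1 was not tested. Ch25h, which makes 25-hydroxycholesterol, was lower after irradiation, at 123, 51.7 and 66.0 CPM.

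Among the other lists, CONV alveolar macrophages stood apart for a few genes, and others differed in FLASH or in both. Pparg was at 106, 168 and 101 CPM, 1.58 times the control in CONV (1.00 to 2.56) and 0.952 times in FLASH (0.572 to 1.61). FLASH was at 0.603 times CONV (0.405 to 0.885) for Pparg and 0.555 times (0.356 to 0.850) for Rxra, the partner of PPAR-gamma, a gene added here after its values were seen. The corepressor gene Ncor1 was higher in both, at 45.04, 127 and 125 CPM, beside 144, 141 and 179 CPM in T-like cells. Its control level was also the lowest in monocytes (79.9, 141 and 124 CPM) and in interstitial macrophages (43.2, 101 and 104 CPM). The transcription factor gene Bhlhe40 was lower in FLASH, at 487, 364 and 254 CPM, and Dbi, an acyl-CoA binding protein gene, was lower in CONV, at 692, 455 and 570 CPM. The median log2 ratios of the uptake list were 0.17 in CONV and 0.03 in FLASH, of the lipid binding list 0.06 and -0.20, and of the PPAR list 0.33 (3 of 9 higher) and -0.07 (1 of 9 higher, 1 lower).

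Storage and burning of fatty acids showed no common direction in alveolar macrophages. Of the droplet storage and lipolysis genes, 1 of 10 was higher and 2 lower in CONV, none of 9 passed in FLASH, and the medians were -0.24 and -0.02. G0s2, an inhibitor of triglyceride breakdown, was the higher one, at 20.5, 64.7 and 42.4 CPM beside 6.98, 30.3 and 31.5 CPM in T-like cells. Abhd5, which activates that breakdown, was at 160 CPM in the control, 101 CPM in CONV and 139 CPM in FLASH. For fatty acid oxidation, 3 of 11 were higher and 2 lower in CONV, none of 12 passed in FLASH, and the medians were 0.14 and 0.18. Cpt1a, which admits fatty acids to the mitochondrion, was at 119, 187 and 170 CPM, or 1.58 times the control in CONV (1.03 to 2.49). Etfb, which passes on electrons from this oxidation, was at 328, 211 and 250 CPM, the control being high.

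Of the genes of lipid-laden macrophages, none of 12 compared passed the limit in alveolar macrophages in either comparison with the control, where Spp1 (606 and 416 CPM in control and CONV) and Tyrobp (1937, 2603 and 2653 CPM) had the ratios farthest from 1 in CONV. In interstitial macrophages 3 of 10 were higher in CONV and 5 of 9 in FLASH, none lower, with list medians of 0.32 and 0.74 against 0.09 and 0.07 over all genes and a background of 19.5% and 18.8% higher. The 5 genes were Trem2, a lipid-sensing receptor, Cd9, Lgals1, Lgals3 and Ctsl, named after their values were seen. Lgals3 stood at 497, 584 and 1147 CPM, so FLASH was the high library at 1.96 times CONV (1.58 to 2.45). Trem2 stood at 187, 334 and 311 CPM and Cd9 at 237, 408 and 460 CPM, the control being low for both. The control class rests on 29 cells, 1 of which held all 123 of its Ly6c2 UMIs.

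Fabp5 and Fabp4 lie 187480 bases apart on chromosome 3, and Pmp2 and Fabp9 between them had no UMI in alveolar or interstitial macrophages, monocytes or T-like cells. Apoc1, 3448 bases from Apoe, was at most 90.5 CPM in alveolar macrophages and at 576 CPM (80 UMIs) in control interstitial macrophages, and Apoc4 had 1 UMI in all 4 classes together. Over 42 points (14 classes in 3 libraries, which share their depth and free RNA), the pairs of the 8 genes most alike in log2(CPM + 1) were Fabp1 with Abcg1 (Pearson r = 0.69) and Lpl with Plin2 (0.61), and the least alike were Fabp1 and Apoe (-0.25). Among 5096 other genes, the pattern nearest to each was that of Cpne5 for Fabp1 (r = 0.85), with Cidec, a droplet protein gene, next (0.84), Flt1 for Fabp4 (0.80), Cebpa for Fabp5 (0.67) and Ctsh for Cd36 (0.74). For the others it was Gnaq for Lpl (0.84), Asah1 for Plin2 (0.84), Myh9 for Abcg1 (0.81) and Blvrb for Apoe (0.79).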

How the data were processed

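The deposited files give, for each of the 3 libraries, a 10x matrix of UMI counts per gene and cell barcode; per the submitters' processing notes they were made with Cell Ranger 2.0 on mm10, and the values were used as raw counts. The cell filters (a minimum of 200 genes, a mitochondrial share no higher than 10%) removed 204 barcodes, and 117 predicted doublets were removed at a rate of 0.8% per 1000 cells. Clustering used scanpy 1.11.5 in Python 3.11.15 (2000 variable genes, 30 principal components, 15 neighbours, Leiden resolution 1.0), with the 8 genes and the 107 related lipid genes left out, so that their levels did not form the classes. Clusters were called "-like" from at least 3 marker genes, 4 of 25 stayed unnamed, and since no deposited annotation was used, classes may differ from those of the study.

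UMIs were summed per library and class. Ratios were compared for genes with at least 30 UMIs over both libraries and called past the limit at 1.5 times. Intervals are exact Poisson (levels), conditional binomial (ratios) and Clopper-Pearson (shares), all 95% and for counting error only; with 1 library per group there is no test and no replicate error. Over all cells kept, 0 cells with a UMI in a library allows a share of up to 0.176% (control), 0.126% (CONV) or 0.133% (FLASH), which limits cells with a detected UMI and not cells that express the gene. The members and lists were chosen with earlier results of these data known. From each of the 7 wider lists, genes were named from the 3 with the ratio farthest from 1 in alveolar macrophages in either comparison with the control, and Pparg always; others are marked as named after their values were seen. A result of this rule is not reported here. Scripts were tested on simulated data. Alternatives changed the cell filters, doublet removal, clustering genes and resolution, scaling, background subtraction and size limit.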

Additional observations from a re-analysis of the deposited data

Results flagged for a closer look

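Fabp4 moved in opposite directions in different classes under the same comparison. In CONV against control its ratio was 4.37 in interstitial macrophages and 0.576 in alveolar macrophages. In FLASH against CONV it was 1.66 in the monocyte cluster and 0.0785 in interstitial macrophages, where FLASH had 0 UMIs and was set at a floor of 3 counts. Neither difference between classes was tested. Of the 43 UMIs in CONV interstitial macrophages, 39 were in 1 cell, and all 6 in the control were in 1 cell.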

How the results depend on the processing

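With a size limit of 2 times, no gene of the 8 passed in alveolar macrophages (0 in each comparison), 1 passed in CONV and 0 in FLASH against control in interstitial macrophages, and 0 in FLASH against CONV in monocytes. Subtracting the T-like level gave 2 genes in alveolar macrophages (FLASH against control) and 1 in monocytes in each comparison with the control. In interstitial macrophages, CONV against control gave 1 gene, not 2, at a mitochondrial share of at most 5%, without doublet removal, at 2 times the doublet rate and with the lipid genes kept for clustering. In FLASH against control it was 0, not 1, in these 4 settings, at 500 genes per cell and at resolutions 0.6 and 1.6, and 2 at a mitochondrial share of at most 20%, where the Fabp4 ratio of CONV to control reversed to 0.882. In monocytes, CONV against control gave 2 genes where every cell weighed the same, FLASH against control gave 1 with the lipid genes kept, and FLASH against CONV gave 1 at a mitochondrial share of at most 20%, without doublet removal or scaled by the median gene ratio. Leaving out the cell with most UMIs of a gene, chosen after seeing the data, gave 1, 0 and 0 in interstitial macrophages (CONV against control, FLASH against control, FLASH against CONV) and 1 in monocytes for both FLASH comparisons. Causes of the other changes were not tested.

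In alveolar macrophages over 15 settings, Fabp4 ran from 0.556 to 0.637 in CONV over control and from 0.525 to 0.688 in FLASH over control, past the limit except without the cell with most UMIs (0.688), where Apoe (2.52) passed in its place. Apoe in FLASH over control ran from 0.442 to 2.52, Fabp5 in CONV over control from 0.496 to 0.608, and Fabp5 in FLASH over CONV from 1.59 to 1.87. Apoe of interstitial macrophages in FLASH over control ran from 0.787 to 1.23, being below 1 only at a mitochondrial share of at most 20%, and in FLASH over CONV in monocytes from 1.35 to 1.55. The monocyte class held 504 cells at the main settings and at resolution 0.6. In every other clustering tried, including those at the main resolution, it held 200 to 240, so its values there describe a smaller set of cells. The interstitial class of the control rests on 29 cells. Of 144 shares recomputed at other depths, 80 moved by more than their counting interval. A share of cells with a UMI changes with depth itself, so this count says nothing about the comparison of libraries. No paired analysis was possible because each group is 1 library.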

Other observations

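Outside the phagocytes, the lipid genes of general capillary endothelium and alveolar type 2 cells also differed between libraries (control, CONV, FLASH). In capillary endothelium (74, 57 and 79 cells) Lpl was at 446, 83.8 and 130 CPM, Cd36 at 1010, 511 and 570 CPM, and Apoe at 2476, 701 and 606 CPM, the control being high for each. For Apoe, 5 control cells held 76.0% of the 505 UMIs. Fabp4 there was at 255, 838 and 224 CPM, with 64 of the 110 CONV UMIs in 1 cell. In type 2 cells (136, 403 and 331 cells) Fabp5 was at 1037, 1885 and 1432 CPM, with CONV the high library, Plin2 was at 155, 70.5 and 56.1 CPM, and Lpl at 30.5, 57.2 and 52.4 CPM. Fabp5 of club cells was at 248, 39.5 and 29.0 CPM, with 103 of the 152 control UMIs in 1 cell. In type 2 dendritic-like cells Cd36 was at 122, 59.3 and 36.0 CPM.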
